A study of Mus musculus with 6 samples.

Results

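Laminins and integrins were described in the left lung lobe of wild type mouse embryos and of embryos labelled Smad1 CKO, a knockout of Smad1 aimed at the lung epithelium. Members were the genes whose array annotation symbol was Lama, Lamb or Lamc with a number, or Itga or Itgb with a number and at most 1 further letter. They came to 30 of 18193 annotated genes, with 10 laminin chains, 11 integrin α chains and 9 integrin β chains. For a gene with several probe sets, the brightest on average across the 6 arrays stood for it, and differences below are log2(intensity + 1) in Smad1 CKO minus wild type. Integrin α chains named by a letter, such as Itgav, fell outside the rule.

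The lungs were those of C57/BL6 mice at E18.5, near the end of gestation, in 3 pairs of 1 wild type and 1 Smad1 CKO animal. Smad1 CKO is a conditional knockout of Smad1, a transcription factor of bone morphogenetic protein signalling, made specific to the lung epithelium. Neither the Cre driver nor the deleted part of Smad1 is given in the sources used, and the lobe also holds cells in which the gene was not targeted. Each lobe was hybridised as biotin-labelled cRNA to 1 Affymetrix Mouse430_2 array, so that 3 arrays per genotype set the precision.

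Laminins are the cross-shaped proteins of basement membranes, each built of 1 α, 1 β and 1 γ chain, and they form the sheet on which epithelium, endothelium and muscle rest. Integrins are receptors of 1 α and 1 β chain that span the cell membrane, bind laminins, collagens, fibronectin and other matrix proteins outside, and hold the actin skeleton inside through talin, kindlin and related linkers. In the developing lung these proteins carry branching, the attachment of alveolar cells and the release of active TGF-β from the matrix.

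The array of Smad1 CKO 3 stood apart from the others. Its 18S ribosomal RNA control probe sets averaged an intensity of 2190 where the remaining 5 arrays had 154.0 to 201, and its Gapdh control probe sets averaged 2270 where those arrays had 6740 to 8790. Differences in pair 3 depended on brightness: the median over the brightest 15013 probe sets was -0.96 in pair 3, against -0.30 in pair 1 and -0.02 in pair 2. With the probe sets in 3 equal classes by brightness, 21 members were in the brightest class, 6 in the middle one and 3 in the dimmest (Lama1, Itga10 and Itgb8). The part of this array in each result was not tested beyond the values given without pair 3 and after cyclic loess normalization, which removes differences that follow brightness. Values without pair 3 still hold the drift of pair 1. Smad1 CKO 1 had Xist at 10.95 (log2) where the remaining arrays had 6.07 to 7.70, and the Y-linked Eif2s3y at 3.78 where they had 7.06 to 9.04, so pair 1 differs in sex-linked genes as well as in genotype. Smad1 itself was at 10.00, 10.09 and 9.53 in wild type and at 10.12, 10.62 and 9.05 in Smad1 CKO lungs, a difference of 0.06 ± 0.51 (SD over 3 pairs). Its other probe sets gave -0.28 ± 1.11 and -0.18 ± 1.01, and all 3 were higher in Smad1 CKO in pairs 1 and 2 and lower in pair 3. These values do not show the loss of Smad1, and a probe set outside the deleted part would not check the labels.

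**Figure D1:**
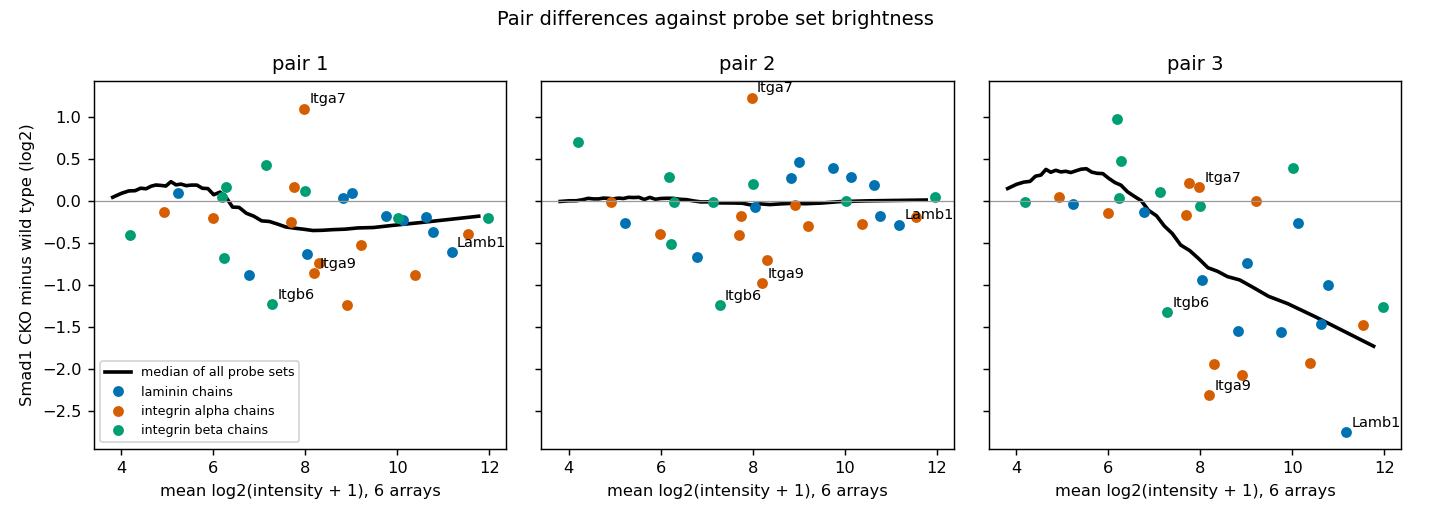
Each panel plots, for 1 pair, the difference Smad1 CKO minus wild type (log2) against the mean log2 intensity over 6 arrays, with the median of all probe sets as a black line and the 30 laminin and integrin genes as points coloured by family. In pair 3 the black line rises to 0.38 at a mean of 5.52 and then falls as brightness rises. In pair 1 it rises to 0.23 at 5.08, then falls by less and turns up again among the brightest. Itgb6 lies near -1.2 to -1.3 and below the line in all panels, and Itga7 lies above it in all panels.

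The comparison asked which of the laminin and integrin genes differ between lungs labelled Smad1 CKO and wild type lungs. With limma and the pair as a block, none of the 30 members passed Benjamini-Hochberg adjustment over 45037 probe sets (lowest adjusted p = 0.367), as none of the 18193 genes did by its brightest probe set (0.0%). At an unadjusted p under 0.05, 7 members were lower in Smad1 CKO lungs, or 23.3% of 30, beside 9.96% of all genes. These were Itgb6, Itga9, Itga4, Itga8, Itga1, Lamc3 and Lamb1. Itga7 was the 1 member higher at that level, 3.33% beside 4.96% of all genes. Lower in all 3 pairs were 13 members, 43.3% beside 29.3% of all genes, and 2 were higher in all 3 pairs (Itga7 and Itgb2l), 6.67% beside 21.0%. All 3 Smad1 CKO values lay below all 3 wild type values for 6 members (Lamb1, Itga2, Itga4, Itga8, Itga9 and Itgb6), 20.0% beside 6.05% of all genes, and above them for Itga7, 3.33% beside 4.25%. After cyclic loess, 8 members were lower (26.7%, beside 6.25% of all genes) and 3 higher (10.0%, beside 8.82%) at an unadjusted p under 0.05. Itga2 and Itgb3 were then among the lower ones in place of Lamc3, and Lamb3 and Itgb2 joined Itga7. Without pair 3, 6 members were lower (20.0%, beside 6.19%) and Itga7 alone was higher (3.33%, beside 3.53%). Without pair 1, Itgb6, Itga9 and Itga4 were lower at that level, 3 of 30 beside 1.76% of all genes, and 0 were higher, beside 0.17%. Bright probe sets were lower as a whole in pair 3 and, less so, in pair 1, and most members are bright. The share of all genes is therefore not matched to the members for brightness. The 21 members in the brightest of 3 brightness classes had medians of -0.25, -0.07 and -1.26 in pairs 1 to 3. All probe sets of that class had -0.30, -0.02 and -0.96.

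**Figure D2:**
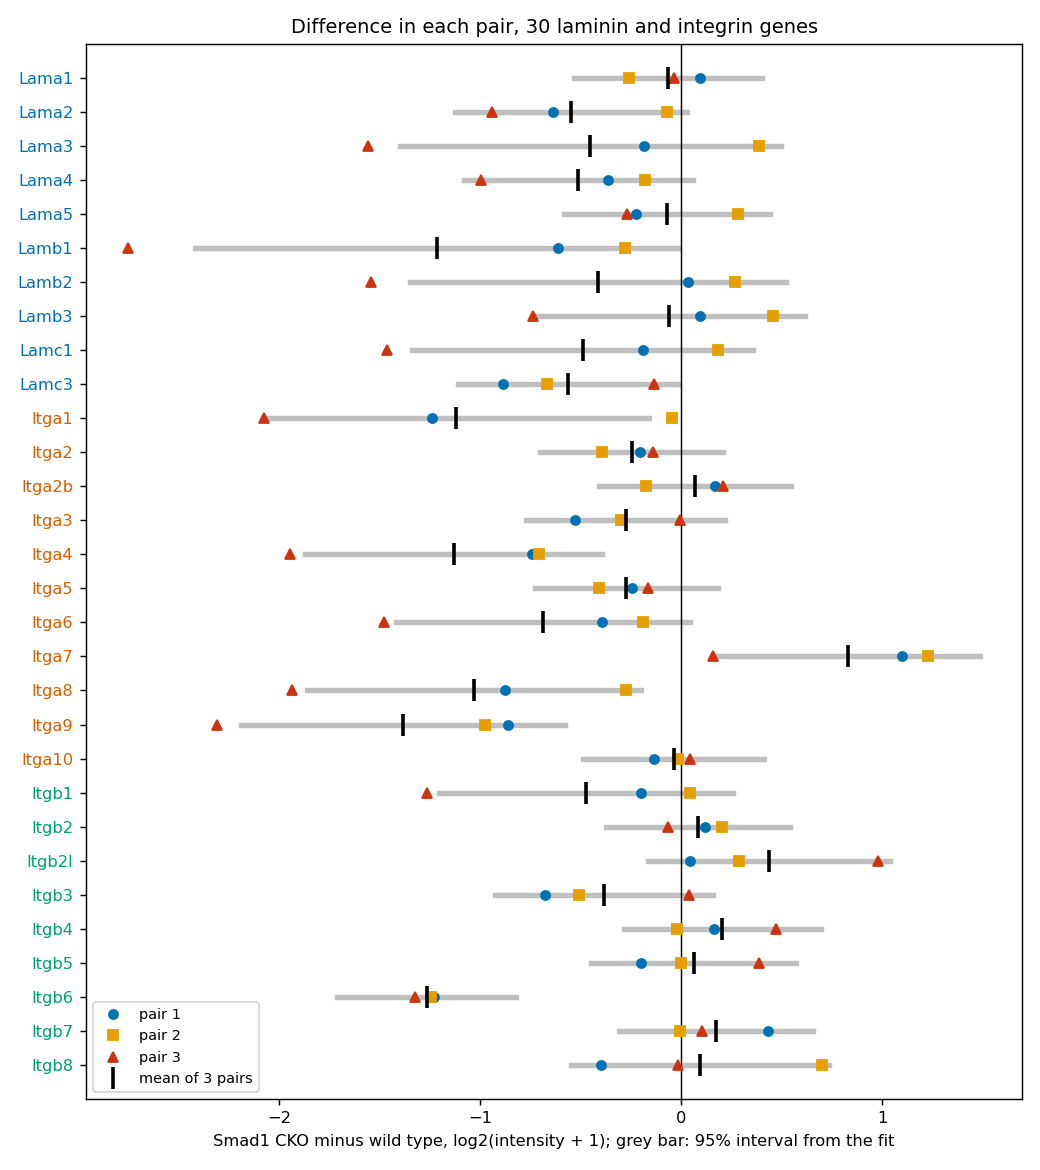
Each row is 1 of the 30 members (blue labels laminins, orange integrin α chains, green integrin β chains), with the Smad1 CKO minus wild type difference (log2) of each pair as a symbol, the mean of 3 pairs as a black bar and the 95% interval of the fit in grey. The 3 pairs of Itgb6 lie together at -1.23, -1.24 and -1.32, whereas those of Lamb1 run from -0.28 to -2.75.

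Promoter sequences are shown for the 4 members with the largest differences among those whose lower Smad1 CKO values did not overlap the wild type values, since these would be the first to be searched for sites of a SMAD protein. SMAD proteins are known to bind CAGAC and, in BMP-responsive genes, GGCGCC. Each sequence is the 250 bases before the transcription start from RefSeq (GRCm38.p6), 5′ to 3′ in the direction of the gene, with matches to CAGAC (or GTCTG, its reverse complement) and to GGCGCC, which reads the same on both strands, in capitals. Itga9 is on the plus strand at chr9:118711442-118711691, and Itga4 on the plus strand at chr2:79255176-79255425. Itgb6 is on the minus strand at chr2:60722604-60722853, the outer of its 2 listed starts, and Lamb1 on the plus strand at chr12:31265043-31265292.
Itga9: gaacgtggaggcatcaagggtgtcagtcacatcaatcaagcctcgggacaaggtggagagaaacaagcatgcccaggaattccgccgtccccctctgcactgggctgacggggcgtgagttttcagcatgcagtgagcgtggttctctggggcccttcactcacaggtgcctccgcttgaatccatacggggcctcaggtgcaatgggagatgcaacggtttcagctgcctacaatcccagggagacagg
Itgb6: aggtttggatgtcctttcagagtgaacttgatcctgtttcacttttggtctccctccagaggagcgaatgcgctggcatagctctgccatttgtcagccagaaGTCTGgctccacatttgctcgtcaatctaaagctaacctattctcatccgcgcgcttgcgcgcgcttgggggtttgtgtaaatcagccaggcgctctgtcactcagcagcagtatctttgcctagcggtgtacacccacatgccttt
Lamb1: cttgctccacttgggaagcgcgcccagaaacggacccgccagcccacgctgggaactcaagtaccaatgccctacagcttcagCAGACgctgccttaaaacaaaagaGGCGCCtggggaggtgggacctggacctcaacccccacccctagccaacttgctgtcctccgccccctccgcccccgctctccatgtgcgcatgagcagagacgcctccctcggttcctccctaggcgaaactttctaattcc
Itga4: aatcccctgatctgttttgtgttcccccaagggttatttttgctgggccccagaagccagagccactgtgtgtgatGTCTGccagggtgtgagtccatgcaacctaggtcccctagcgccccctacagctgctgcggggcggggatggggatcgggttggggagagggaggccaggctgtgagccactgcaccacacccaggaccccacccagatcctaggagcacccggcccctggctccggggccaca
The Itga9 sequence held neither motif, Itgb6 and Itga4 held 1 GTCTG each, and Lamb1 held 1 CAGAC and 1 GGCGCC. Over all 32851 listed promoters, 42.2% held CAGAC or GTCTG and 9.59% held GGCGCC in this window. The members had 23 listed promoters of 20 genes, of which 15 held the first motif and 3 the second (those of Lama5, Itgb1 and Lamb1). Letters in this window are a description and say nothing of binding.

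Among the integrin β chains, Itgb6 had the lowest value and the closest pairs of all members with an unadjusted p under 0.05. Itgb6 encodes the β6 chain, which is made in epithelium, pairs with αv and, as αvβ6, releases active TGF-β from its latent complex. Its levels were 8.12, 7.66 and 7.95 (log2) in the wild type animals of pairs 1 to 3 and 6.89, 6.41 and 6.63 in their Smad1 CKO partners. All Smad1 CKO values lay below all wild type values, and the array that stands apart was not the lowest. The difference was -1.27 ± 0.05 (SD over 3 pairs), a 2.40-fold lower intensity, with a 95% interval of -1.71 to -0.82 (limma, unadjusted p = 0.000486, adjusted p = 0.367). The second probe set of Itgb6 gave -1.24 ± 0.38. Without pair 3 the difference was -1.24, and after cyclic loess it was -1.05. Its partner Itgav, outside the rule, was at 11.10, 11.17 and 10.66 in wild type and at 10.50, 11.27 and 9.84 in Smad1 CKO lungs, with overlapping groups (-0.44 ± 0.48, adjusted p = 0.375 in limma). The Itgb6 difference was below that of Itgav in each pair, with -0.62, -1.34 and -0.51 as Itgb6 minus Itgav in pairs 1 to 3. After cyclic loess these became -0.66, -1.32 and -1.59, so that pair 3 went from the smallest gap to the largest. The Itgav probe set is far brighter than that of Itgb6. In whole lobe RNA, fewer cells of a type and less RNA per cell cannot be told apart, here and for every gene below.

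The other β chains showed no such gap. Itgb1, the common partner of most matrix-binding α chains, was at 12.32, 12.25 and 12.02 in wild type and at 12.12, 12.30 and 10.76 in Smad1 CKO lungs. Only the Smad1 CKO 3 value lay clearly apart, and the difference was -0.47 ± 0.70, with -0.08 without pair 3 and 0.17 after cyclic loess. Itgb4, the partner of α6 in the hemidesmosomes that anchor epithelium to laminin, was at 6.41, 6.10 and 6.02 in wild type and at 6.57, 6.08 and 6.49 in Smad1 CKO lungs, with overlapping groups (0.21 ± 0.25). Itgb5, another αv partner, was at 0.06 ± 0.30, and at 0.59 after cyclic loess. The latter is the mean of 0.10, 0.02 and 1.66 in pairs 1 to 3. The brightest probe set of Itgb5 is of a kind that may bind related transcripts. The other probe sets of Itgb5 gave -0.45, -0.10 and -0.54, and the last of these is of the same kind. Itgb3, the β chain of αvβ3 and of the platelet receptor with α2b, was at -0.38 ± 0.37 and mixed in sign, at -0.59 without pair 3 and -0.45 after cyclic loess, while its dimmer probe set gave 0.18. Itgb2, the β chain of several leukocyte integrins, was at 0.09 ± 0.14. Itgb7, a partner of α4 on leukocytes, was at 6.95, 6.88 and 7.31 in wild type and at 7.38, 6.88 and 7.41 in Smad1 CKO lungs, with overlapping groups (0.18 ± 0.23). Itgb8, also an αv partner, was among the dimmest probe sets (0.09 ± 0.56), and the β2-like chain gene Itgb2l was at 0.44 ± 0.48. The median over the 9 β chains was 0.09, beside -0.09 over all genes.

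The α chains spread most. Itga9 encodes α9, which joins β1 and binds tenascin-C and other matrix proteins. It was at 9.14, 8.40 and 9.12 (log2) in wild type and at 8.28, 7.42 and 6.81 in Smad1 CKO lungs. Every Smad1 CKO value lay below the lowest wild type value, and the highest of them was that of lung 1. The difference was -1.38 ± 0.80, a 2.61-fold lower intensity (limma, unadjusted p = 0.00589, adjusted p = 0.367), with -0.92 without pair 3 and -1.01 after cyclic loess. By pair, cyclic loess left Itga9 at -0.54, -0.93 and -1.56, still lowest in pair 3. Its other probe sets were at -1.60 and -0.49.

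Itga4 encodes α4, the partner of β1 or β7 in receptors for fibronectin and for VCAM-1, found on leukocytes and on fetal mesenchyme. It was at 8.79, 9.25 and 8.57 in wild type and at 8.05, 8.54 and 6.63 in Smad1 CKO lungs. The groups did not overlap, although the highest Smad1 CKO value came close to the lowest wild type value. The difference was -1.13 ± 0.70 (limma, unadjusted p = 0.00966, adjusted p = 0.367), with -0.73 without pair 3 and -0.75 after cyclic loess. By pair, cyclic loess left Itga4 at -0.42, -0.66 and -1.16, still lowest in pair 3. Its probe set next in brightness gave -1.14 ± 0.25, and the 3 dim ones, all below the array median, gave -0.52, -0.04 and 0.17.

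Itga8 encodes α8, the receptor chain for nephronectin on mesenchyme and smooth muscle. It was at 11.03, 10.95 and 10.71 in wild type and at 10.15, 10.68 and 8.77 in Smad1 CKO lungs. The groups just failed to meet: the highest Smad1 CKO value was 10.68 and the lowest wild type value 10.71. The difference was -1.03 ± 0.84 (limma, unadjusted p = 0.0234, adjusted p = 0.367), its second probe set gave the same -1.03, and it was -0.58 without pair 3 and -0.47 after cyclic loess. Itga1, the collagen-binding α1 chain, was at 9.35, 9.54 and 9.52 in wild type and at 8.12, 9.50 and 7.45 in Smad1 CKO lungs. Here lung 2 of the Smad1 CKO group lay within the wild type range, so the groups overlapped. The difference was -1.12 ± 1.02 (limma, unadjusted p = 0.0292, adjusted p = 0.367), and its second probe set gave -0.98 ± 0.59. It was -0.64 without pair 3 (unadjusted p = 0.0555) and -0.67 after cyclic loess.

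Itga7 went the other way. It encodes α7, a laminin receptor chain that pairs with β1 and is best known from skeletal, cardiac and smooth muscle. Its levels were 7.58, 7.52 and 7.57 (log2) in wild type and 8.67, 8.75 and 7.73 in Smad1 CKO lungs. All Smad1 CKO values lay above all wild type values, with lungs 1 and 2 far above and lung 3 just above. The difference was 0.83 ± 0.58, a 1.78-fold higher intensity with a 95% interval of 0.17 to 1.49 (limma, unadjusted p = 0.022, adjusted p = 0.367). It was 1.16 without pair 3 and 1.17 after cyclic loess (limma, adjusted p = 0.207 and 0.336). Without pair 1 it was 0.69 and without pair 2 it was 0.63, with unadjusted p of 0.133 and 0.104 in limma. The array holds 1 probe set for Itga7, so no second one could be set beside it.

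Further laminin, collagen and fibronectin receptor chains had an unadjusted p over 0.05 by their brightest probe set. Itga6, the α chain shared by α6β1 and α6β4, was at 11.94, 11.96 and 11.75 in wild type and at 11.55, 11.77 and 10.27 in Smad1 CKO lungs. It was lower in each pair, with the groups overlapping through lung 2, and its difference of -0.69 ± 0.69 was -0.29 without pair 3 and -0.07 after cyclic loess (limma, adjusted p = 0.367, 0.671 and 0.858). Its second probe set, bright as well, gave -0.94 ± 0.59 and was lower in each pair (limma, unadjusted p = 0.0134, adjusted p = 0.367), and the mean of both gave -0.81 (unadjusted p = 0.0174). Itga3, which pairs with β1 on alveolar epithelium, was at -0.28 ± 0.26, and at 0.20 after cyclic loess. The latter is the mean of -0.20, -0.27 and 1.05 in pairs 1 to 3. The collagen receptor chain gene Itga2, in the middle class by brightness, was at -0.25 ± 0.13 without overlap between the groups. Itga5, the fibronectin receptor chain, was at -0.27 ± 0.12, and at 0.02 after cyclic loess. The platelet chain gene Itga2b was at 0.07 ± 0.21, and the cartilage chain gene Itga10, a dim probe set, at -0.04 ± 0.09. The median over the 11 α chains was -0.28, with -0.39, -0.27 and -0.17 in pairs 1 to 3. Over all genes the pair medians were -0.09, -0.0018 and -0.16.

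**Figure D3:**
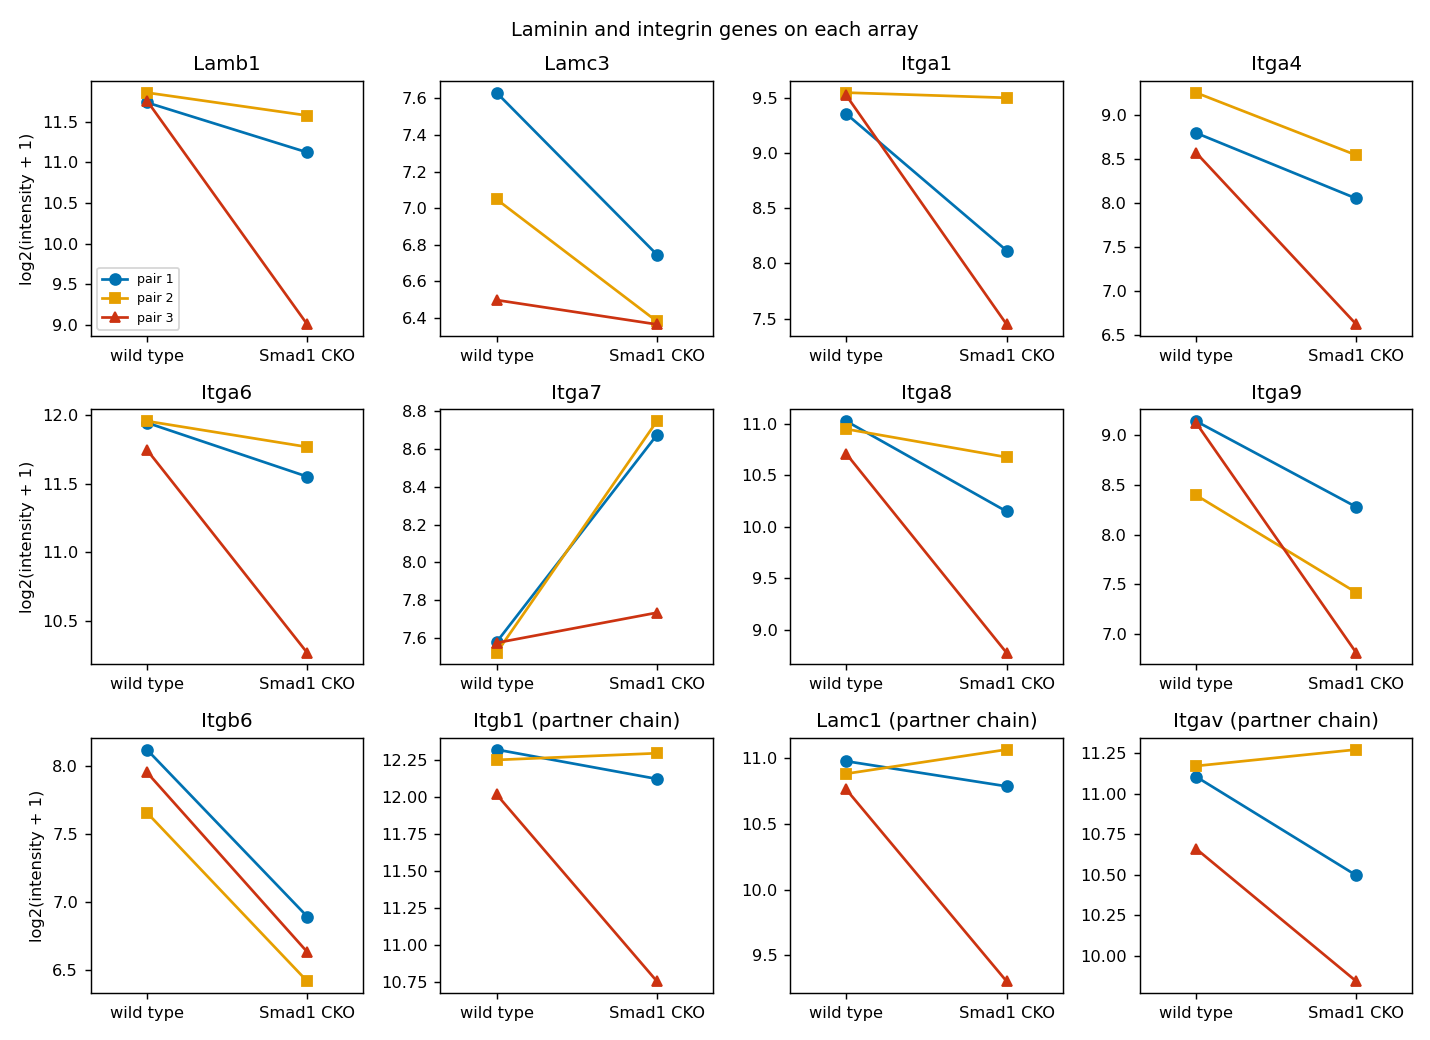
Each panel plots 1 gene, with log2(intensity + 1) on 6 arrays and a line joining the wild type and the Smad1 CKO animal of each pair. The vertical scale differs between panels. The lines of Itgb6 run nearly parallel, those of Itga7 differ by 1.10, 1.23 and 0.16, and in Itgb1 and Lamc1, shown as partner chains, the steep line is that of pair 3.

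Within an integrin the chains differed unequally. The α chains that share β1 were set against it by subtracting the Itgb1 difference from theirs within each pair, a description chosen after the values were seen and therefore not tested. Itga7 minus Itgb1 was 1.30, 1.18 and 1.42 in pairs 1 to 3 (1.30 ± 0.12, SD over 3 pairs). After cyclic loess these became 1.41, 1.24 and 0.36, so that pair 3 went from the highest to the lowest of the 3 and the closeness of the pairs was lost. The Itgb1 probe set is far brighter than that of Itga7, and differences in pair 3 varied with brightness. Itga9 minus Itgb1 was -0.66, -1.02 and -1.04, and Itga4 minus Itgb1 was -0.54, -0.75 and -0.68. In pair 3 they were -2.03 and -1.62 after cyclic loess. Itga8 gave -0.68, -0.32 and -0.67, Itga1 gave -1.04, -0.09 and -0.81, and Itga6 gave -0.19, -0.23 and -0.21, with means of -0.64, -0.84 and -0.24 after cyclic loess. These are differences between changes of probe sets, not ratios of RNA levels, and they do not show that Itgb1 stayed level.

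Among the laminins the β1 chain had the lowest value. Lamb1 is the β chain of most laminins of the fetal lung, where it joins Lamc1 and one of several α chains. It was at 11.74, 11.86 and 11.76 (log2) in wild type and at 11.12, 11.58 and 9.01 in Smad1 CKO lungs. The groups did not overlap, and lung 3 was far below the other Smad1 CKO lungs. The difference was -1.21 ± 1.34 (limma, unadjusted p = 0.0486, adjusted p = 0.367), but -0.45 without pair 3 (adjusted p = 0.578) and -0.62 after cyclic loess. By pair, cyclic loess left Lamb1 at -0.37, -0.28 and -1.20, still lowest in pair 3. Its other probe sets above the array median gave -1.17 and -0.69, and a dim one gave 0.48.

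Lamc1, the γ chain that joins Lamb1, was at 10.98, 10.88 and 10.76 in wild type and at 10.79, 11.07 and 9.30 in Smad1 CKO lungs. Apart from lung 3 its values lay in or near the wild type range, and the difference was -0.49 ± 0.86, with -0.0036 without pair 3. Lamb1 minus Lamc1 was -0.42, -0.47 and -1.29 in pairs 1 to 3. Lamc3, a γ chain of restricted expression, was lower in each pair, at 7.63, 7.05 and 6.50 in wild type and at 6.75, 6.38 and 6.37 in Smad1 CKO lungs. Its groups overlapped because wild type lung 3 was low, and the difference was -0.56 ± 0.39 (limma, unadjusted p = 0.0464, adjusted p = 0.367). Without pair 3 it was at -0.78, and its second probe set gave -0.43.

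The α chains of laminins and the other β chains were mostly lowest in pair 3. Lama4, of vascular basement membranes, was at 11.10, 11.16 and 10.83 in wild type and at 10.73, 10.98 and 9.84 in Smad1 CKO lungs (-0.51 ± 0.43). Its groups overlapped through lung 2, and the difference was 0.06 after cyclic loess. Lama2, of muscle and mesenchyme, was at 8.60, 8.54 and 7.80 in wild type and at 7.97, 8.47 and 6.86 in Smad1 CKO lungs (-0.55 ± 0.44), with -0.20 after cyclic loess. Lama5, the main α chain of alveolar basement membrane, was at 10.31, 10.07 and 10.12 in wild type and at 10.08, 10.36 and 9.85 in Smad1 CKO lungs. Its groups overlapped, the difference was -0.07 ± 0.31, and it was 0.47 after cyclic loess (limma, adjusted p = 0.38). By pair, cyclic loess gave Lama5 0.07, 0.30 and 1.03, highest in pair 3. Lama1, the α chain of the early embryo, was among the dimmest probe sets (-0.07 ± 0.18).

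Lama3 and Lamb3 are chains of the laminin that anchors epithelium. Lama3 was at -0.18, 0.39 and -1.56 and Lamb3 at 0.10, 0.46 and -0.74 in pairs 1 to 3. After cyclic loess Lamb3 was at 0.40 (unadjusted p = 0.0359, adjusted p = 0.34 in limma) and Lama3 at 0.06. Lamb2, a β chain of mature basement membranes, was at 0.03, 0.27 and -1.54. The median over the 10 laminin chains was -0.47, with -0.21, 0.06 and -0.97 in pairs 1 to 3, and it was -0.04 without pair 3 and 0.05 after cyclic loess, so its sign turned under cyclic loess. Over all 30 members the median was -0.33, with 0.02 after cyclic loess.

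**Figure D4:**
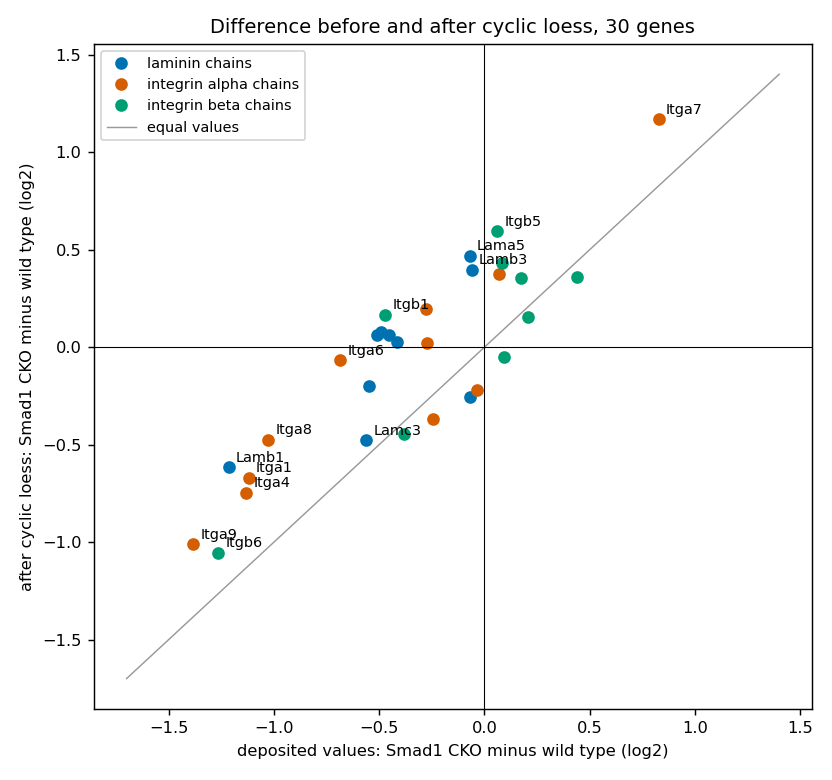
Each point is 1 of the 30 members, with the Smad1 CKO minus wild type difference (log2) of the deposited values on the horizontal axis and after cyclic loess on the vertical axis; the grey line marks equal values. Itgb6, Itga9, Itga4, Itga1, Lamb1 and Itga8 stay below 0 and Itga7 above 0, while Itgb1, Lama5 and Lamb3 move from below to above 0.

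Proteins that sit beside laminins in the basement membrane were read from a list of 19 genes. None passed adjustment (limma), 7 were lower and 0 higher at an unadjusted p under 0.05, and 14 were lower in all 3 pairs, beside 9.96%, 4.96% and 29.3% of all genes. None of the 19 was below the array median in brightness, and the part of the brightness drift in pairs 1 and 3 was not tested beyond the values that follow. Those with the smallest p were Frem1, a protein of embryonic basement membranes, at -1.28 ± 0.60, Col18a1, the collagen that releases endostatin, at -0.93 ± 0.38, Col4a3, a type IV collagen chain of the alveolar wall, at -0.81 ± 0.23, and Ntn4, a netrin that binds laminin γ chains, at -1.24 ± 0.82. The list median was -0.66, with -0.29 without pair 3 and -0.08 after cyclic loess. After cyclic loess Frem1 was at -0.83, Ntn4 at -0.97, Col18a1 at -0.44 and Col4a3 at -0.42.

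Integrin ligands and laminin receptors outside the families gave 1 gene lower and 0 higher of 16 at an unadjusted p under 0.05, beside 9.96% and 4.96% of all genes. Their median was -0.42, and 0.10 after cyclic loess. The lower gene was Tnc, tenascin-C, a ligand of α9β1 and α8β1, at -0.67 ± 0.29, and at -0.27 after cyclic loess (limma, unadjusted p = 0.112). Dag1, dystroglycan, was at -0.62 ± 0.54, and at 0.02 after cyclic loess. Tgfb1, whose latent form αvβ6 and αvβ8 bind, was at -0.44 ± 0.12, and at -0.03 after cyclic loess. None of the 20 measured genes of the adhesion complex inside the cell was below the array median in brightness. Of these 20, 4 were lower and 0 higher at an unadjusted p under 0.05, beside 9.96% and 4.96% of all genes, and none passed adjustment. The 4 were Parvb, a parvin, at -0.79 ± 0.23, the LIM adaptors Lims2 and Lims1 at -0.65 ± 0.12 and -0.81 ± 0.54, and the actin-binding tensin gene Tns1 at -0.80 ± 0.68. After cyclic loess they were at -0.47, -0.27, -0.21 and -0.16, none with an unadjusted p under 0.05. The list median was -0.61, with -0.21 without pair 3 and -0.07 after cyclic loess. Of the 5 measured α chains named by a letter, mostly of leukocytes, Itgae was higher in each pair (0.48 ± 0.16, limma, unadjusted p = 0.0431, adjusted p = 0.367) at a dim signal of 5.28 to 6.19 (log2).

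**Figure D5:**
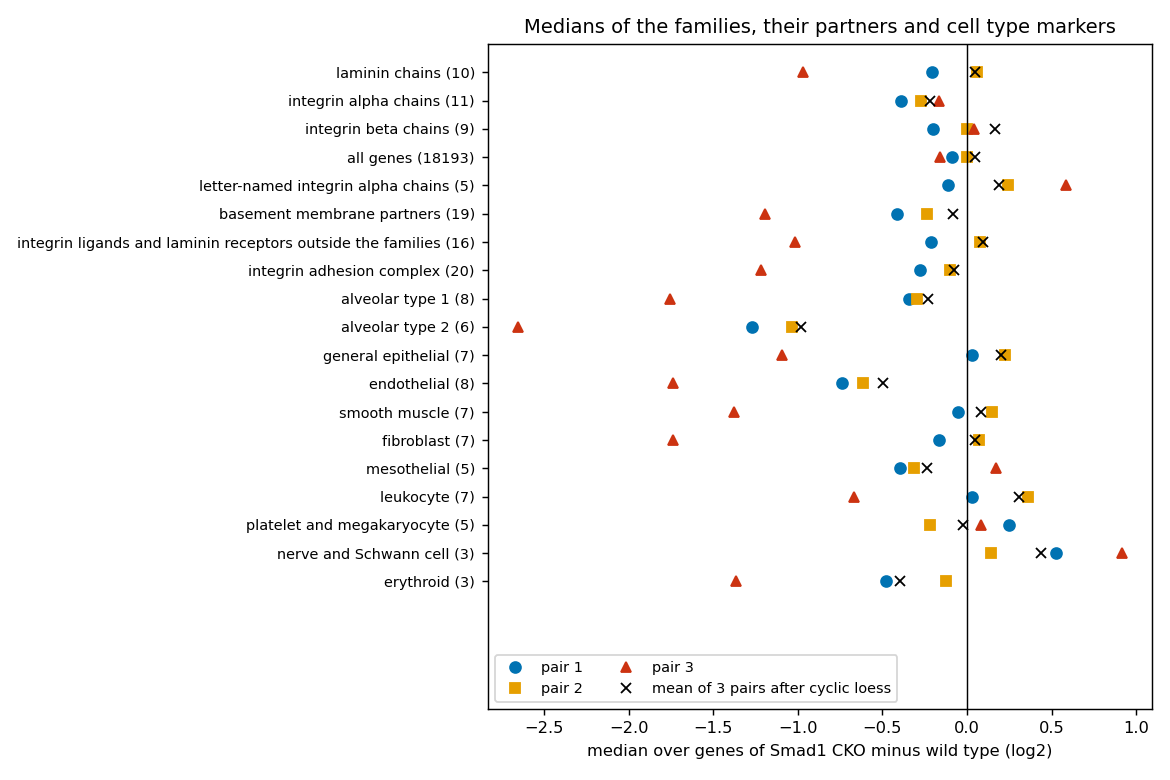
Each row is a gene list with its number of measured genes, and the symbols give the median over its genes of the Smad1 CKO minus wild type difference (log2) in each pair, with a cross for the fitted difference after cyclic loess. Laminin chains, basement membrane partners and the adhesion complex lie between -0.24 and 0.06 in pair 2 and between -1.22 and -0.97 in pair 3. Integrin α chains, basement membrane partners, the adhesion complex and the alveolar type 1, alveolar type 2, endothelial and erythroid markers lie below 0 in all pairs. The row of all genes does so as well, at -0.09, -0.0018 and -0.16 in pairs 1 to 3.

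Markers of the cells that carry these receptors differed as well. Beside the 29.3% of all genes that were lower in all 3 pairs, all 8 alveolar type 1 markers were, with summed intensity of 45000 to 47400 in wild type and 12100 to 37100 in Smad1 CKO lungs. All 6 measured alveolar type 2 markers were lower in all 3 pairs (57500 to 64200, against 11100 to 39300), as were all 8 endothelial markers (9270 to 13200, against 2570 to 8670). The median of the alveolar type 1 markers was -0.86, with -0.31 without pair 3 and -0.23 after cyclic loess. Alveolar type 2 markers had -1.66, -1.15 and -0.98, and endothelial markers had -1.04, -0.71 and -0.50, in the same order. The alveolar type 1 markers were uneven after cyclic loess. Aqp5 was then at -2.64, Clic5 at -1.02, Rtkn2 at -0.98 and Pdpn at -0.23, while Cav1 was at 0.04 and Hopx at -0.02. General epithelial markers were lower in all pairs for 2 of 7 (11700 to 12100, against 3940 to 13600), smooth muscle markers for 0 of 7 (6770 to 8940, against 3530 to 8130) and leukocyte markers for 0 of 7 (2930 to 3990, against 1940 to 4670). Fibroblast markers were lower in all pairs for 2 of 7 (33100 to 40200, against 8680 to 38400), mesothelial markers for 2 of 5 (2880 to 4260, against 1010 to 1970), platelet and megakaryocyte markers for 2 of 5 (782 to 1070, against 647 to 871) and erythroid markers for 2 of 3 (2050 to 2760, against 542 to 1830). The 3 measured nerve and Schwann cell markers had a median of 0.50 (176 to 203, against 197 to 385). No marker was at 0 on any array. Epithelial Itgb6 was lower beside alveolar markers that were lower and general epithelial markers with a median of 0.03, 0.22 and -1.09 in pairs 1 to 3, and Itga7 was higher beside smooth muscle markers with -0.05, 0.15 and -1.38. The part of these cell types in the differences of laminins and integrins was not tested.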

How the data were processed

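RNA of 6 left lung lobes (3 wild type, 3 Smad1 CKO) was read on Affymetrix Mouse430_2 arrays. What the authors deposited is 1 linear intensity per probe set and array. RMA is named in the submitters' processing notes, without software, version or settings. Scanner values were not used here.

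The scale used is log2(intensity + 1), on which dim genes differ by slightly less. Apart from 64 control probe sets, all 45037 were tested: 34945 had 1 gene symbol in the platform annotation, 932 several and 9160 none. All 30 members matched a current RefSeq gene table by gene identifier, and 0 symbols differed. The two-sided test of genotype came from lmFit and eBayes of limma 3.58.1 (R 4.3.3), with the pair as a block and Benjamini-Hochberg adjustment over all probe sets at 0.05. The script was tested on simulated data. Pairs come from the series design text and from a letter common to both array names. Deviations from group means correlated at 0.258, 0.604 and 0.597 within pairs and at 0.215 or lower between them. For pair 1 the margin is small, and Smad1 CKO 1 was nearer to wild type 3 than to wild type 1 (root mean square distance 0.483 against 0.553). An exact permutation test cannot go below 0.25 within pairs, so none was used. Nothing says more of how animals were bred. With the pair as a block, p-values measure the spread of the differences within these pairs, drawn by eBayes toward that of all probe sets.

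The members and lists were chosen with earlier results of these data known. All members may be named; values on all arrays are given for members with an unadjusted p under 0.05, or a difference of at least 0.58 in the same direction in all 3 pairs, and for their partner chains; up to 4 genes per list with the smallest p are named. The array values of Lama2, Lama4 and Lama5 were added after their values were seen. Cav1 and Hopx are named outside the rule for lists, beside the 4 alveolar type 1 markers with the smallest p. Alternatives were a pair or a Smad1 CKO array left out, no block, cyclic loess, quantile and median scaling, a pseudocount of 16, the dimmest of the 3 brightness classes left out, an intensity trend, and the mean of a gene's probe sets. The smallest root mean square distance between arrays was 0.227, so no array is a copy. Promoters are RefSeq's (GRCm38.p6): 250 bases before each start were searched, the 50 after it left out, and 20 members had an entry.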

Additional observations from a re-analysis of the deposited data

Results flagged for a closer look

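The 18S ribosomal RNA control probe sets, which no comparison used, had a mean intensity of 2190 on Smad1 CKO 3, a signal above that of the wild type arrays and of the Smad1 CKO arrays 1 and 2, which lay between 154.0 and 201.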

How the results depend on the processing

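Over the 13 alternatives, Itgb6 ranged from -1.39 to -1.05 and Itga9 from -1.77 to -0.92, and both had an unadjusted p under 0.05 in all 13, while their lowest adjusted p was 0.151 and 0.179. Itga7 ranged from 0.63 to 1.17 and Itga4 from -1.34 to -0.53. The sign was kept by 16 members in all alternatives run and turned at least once in 14. The same count was not made over all genes, so these numbers have no background share beside them. No member passed adjustment in any alternative.

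Without the pair as a block, 2 members (Itgb6 and Itga9) were lower at an unadjusted p under 0.05, against 7, as the share of all genes lower went from 9.96% to 3.01%, and 0 probe sets passed adjustment, against 1. Leaving out 1 pair gave 3 to 8 members lower (3 without pair 1, 8 without pair 2), beside 1.76% and 18.7% of all genes. It gave 0 or 1 higher, beside 0.17% to 8.58% of all genes, and 0 to 28 probe sets past adjustment. Leaving out an array of the Smad1 CKO group without the block gave 2 lower, beside 1.71% to 2.54% of all genes. It gave 0 or 1 higher, beside 0.33% to 1.42% of all genes, and 0 or 1 probe sets. Medians of integrin α chains then ran from -0.42 to -0.22. Cyclic loess gave 3 members higher (Lamb3, Itga7 and Itgb2), or 10.0%, beside 8.82% of all genes. It gave 2 probe sets past adjustment, and quantile normalization, median centring and the pseudocount of 16 gave 0. Without the dimmest of the 3 brightness classes 17 probe sets passed and the integrin α chain median was -0.48, and with an intensity trend 32 passed.

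Signs turned after cyclic loess for Lama3 (0.063), Lama4 (0.064), Lama5 (0.47), Lamb2 (0.027), Lamb3 (0.40), Lamc1 (0.079), Itga3 (0.20), Itga5 (0.023), Itgb1 (0.17) and Itgb8 (-0.049), and after quantile normalization for Lama4 (0.020), Lama5 (0.45), Lamb3 (0.26), Itga3 (0.15) and Itgb1 (0.12). Without Smad1 CKO 3 and without the block they turned for Lama3 (0.19), Lama5 (0.053), Lamb2 (0.20), Lamb3 (0.49), Lamc1 (0.052), Itgb1 (0.013) and Itgb5 (-0.07), and without Smad1 CKO 1 for Itga2b (-0.0064). The mean of all probe sets turned Itgb5 (-0.26). Leaving out a pair turned Lama5 (-0.25 to 0.029), Itga10 (-0.076 to 0.014), Lama1 (-0.15 to 0.029), Itgb8 (-0.21 to 0.34), Lama3 (-0.87 to 0.10), Lamb2 (-0.76 to 0.15), Lamb3 (-0.32 to 0.28), Itga2b (-0.0026 to 0.19) and Itgb5 (-0.10 to 0.19). The cause was not tested. No detection calls were used here, so signal over background of dim members such as Itgb8 is unknown.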
